A study of Mus musculus with 8 samples.

Results

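The comparison was of 2 clonal lines of one reporter mouse embryonic stem (ES) cell line, clone 16.1 against clone 5.1. Its members were the 4 samples whose title gives clone 16.1 and the 4 whose title gives clone 5.1, which together are all 8 samples of the series. Both clones carry the HV allele, a knock-in at the Hex locus that expresses a tagged Hex cDNA and, through an amplified internal ribosome entry site from the Gtx gene, the fluorescent protein Venus. They share the 129/Ola background, a parental line that expresses the BirA biotin ligase, and the removal of the selection cassette. Cells of each clone were plated at 200000 cells per ml and grown for 24 hours with LIF, the cytokine that keeps ES cells self-renewing. They were then sorted by Venus (V) and by SSEA-1 (S), a surface antigen of undifferentiated ES cells, into 4 fractions, 1 sample of each per clone. Values by fraction are given throughout in one order, first V-S+, then V+S+, then V-S- and last V+S-. The clones go back to separate targeted colonies, each 1 clone, and the study states that such clones had a normal chromosome number. The labels call these samples pre-primitive endoderm; no age or animal applies to a cell line.

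Hex is a homeobox transcription factor of early endoderm, and in the blastocyst it is among the genes of the primitive endoderm (PrEn), the layer that gives rise to yolk sac epithelium. ES cell cultures are a mixture, in which single cells drift between a state close to the epiblast, rich in Nanog, and one in which PrEn genes are transcribed at a low level. Independent clones derived from one targeting experiment are commonly used as replicates of such a line. How far the difference between 2 clones of the same reporter varies from fraction to fraction is the spread against which comparisons of fractions are read. A steady difference between clones drops out of comparisons paired by clone.

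Each array carried 1 sample in Cy3 and a pool of RNA from mouse cell lines, the same reference throughout, in Cy5, and all values below are log2 ratios of sample to reference. Levels are therefore relative to the reference for each probe and were not compared between probes, though ratios were summed over some marker lists. All 4 fractions of a clone lay on 1 slide, at the same array positions in both clones, and a clone cannot be told apart from its slide. Each side is also 1 clone only: the 4 samples of a clone are sorted fractions of its culture, and a p-value states how steady a difference was over fractions, not over clones. Between 28316 and 29671 probes per sample were well above background in both repeat scans, the median Cy3 signal was between 2.36 and 2.868 times the local background, and the number of arrays limits the precision. A probe was called when it passed a false discovery rate (FDR) of 0.05 and differed by more than 1.5-fold in the limma fit with fraction as the other term. Probes carry no gene names in the files. Symbols were known for 1997 of the 29512 probes tested, from a list that the study had chosen on these samples for differing among the fractions, and the share of called probes among them says nothing of the other genes.

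The clones differed at 632 probes, and more of them were higher in clone 16.1. Of 29512 probes tested, 412 (1.4%) were called higher in clone 16.1 and 220 (0.745%) were called lower. Without the fold threshold, 4844 probes (16.4%) passed the FDR as higher and 2901 (9.83%) as lower. The median clone difference over all probes was 0.01. With each scan centred on its median in place of loess, the counts were 525 higher and 170 lower, a share of 75.5% higher against 65.2%. They were 903 and 449 with the scanner's processed signals, and 2 and 0 when limma's moderation of the variances was left out. In V+S+ the clones stood furthest apart: leaving out either sample of that fraction gave 264 higher and 136 lower calls. Leaving out either V+S- sample gave 125 lower calls, and either V-S+ sample 341.

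The Cy5 channel measured the same pool of RNA on both slides, and gives the difference between slides that reached that channel. Taken alone and quantile normalized, it had an SD of the clone difference of 0.0474 over probes, against 0.212 for the Cy3 channel treated in the same way. No probe was called in the reference channel, none passed the FDR in limma there, and 10.6% had an unadjusted p below 0.05. At the 632 called probes, the reference channel differed in the direction of the call by a median of 0.0165, with a range from -0.193 to 0.342, and the sample channel by a median of 0.712. A difference between the slides that acted on the Cy3 channel alone was not tested.

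**Figure D1:**
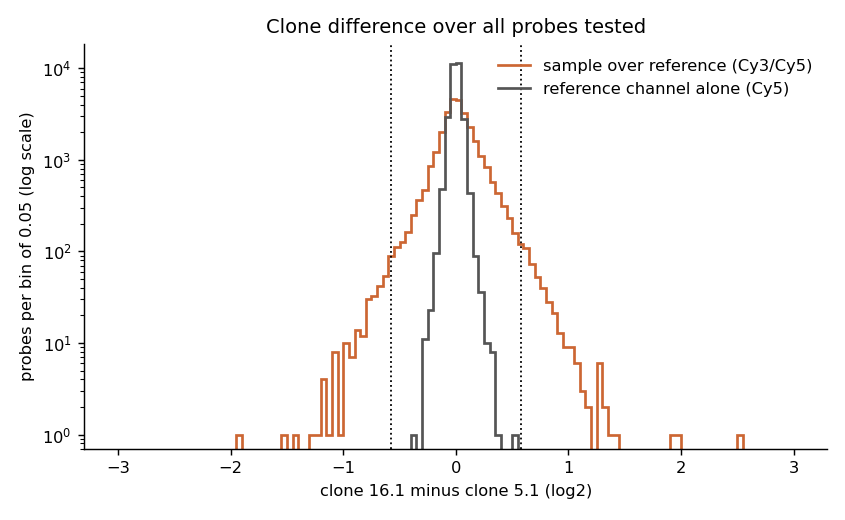
Number of probes (y axis, log scale) by clone difference, clone 16.1 minus clone 5.1 in log2 units (x axis, bins of 0.05), for the ratio of sample to reference and for the reference channel alone; dotted lines mark 1.5-fold. The ratio reached past 1.5-fold on both sides, more often to the right, with an SD of 0.206 over probes, while the reference channel had an SD of 0.0474 and stayed inside the lines.

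The largest differences were at probes with no known gene. Probe Z00059689-1 stood at -2.06, -1.33, -1.91 and -1.37 in clone 5.1, in the order of fractions given above, and at -0.35, 1.61, 0.31 and 1.84 in clone 16.1. The groups did not overlap, and the difference was 2.52 ± 0.23 (SE), a 5.73-fold higher level in clone 16.1 (adjusted p = 0.00213). Probe Z00006600-1 lay between -1.46 and -0.97 in clone 5.1 and stood at -0.24, 1.36, 0.26 and 1.54 in clone 16.1, with a difference of 1.98 ± 0.21 (adjusted p = 0.00277). These probes shared no run of 8 or more bases. On the other side, probe Z00024576-1 stood at 2.5, 2, 2.43 and 2.07 in clone 5.1 and at 1, -0.63, 1.2 and -0.29 in clone 16.1, again without overlap, and fell by 1.93 ± 0.23 (adjusted p = 0.00319). Probe Z00029465-1 lay between 1.56 and 1.87 in clone 5.1 and between 0.08 and 0.41 in clone 16.1. Its difference of -1.54 ± 0.06 (adjusted p = 0.00139) was nearly the same in every fraction, from -1.77 to -1.41, whereas the other 3 probes differed more in the V+ fractions than in the V- fractions.

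Of the 1997 probes with a symbol, 52 (2.6%) were called higher in clone 16.1 and none was called lower. At an FDR of 0.05 with no fold threshold, 753 were higher and 85 were lower in limma, and 213 had an unadjusted p below 0.05 as lower. The clone difference was above 0 for 1359 of them (68.1%), against 53.4% of all probes tested. The 52 differences lay between 0.59 and 0.91. In the reference channel the same probes differed by between -0.13 and 0.13, and in the sample channel alone by between 0.48 and 0.88. The difference was widest in V+S+ for 49 of the 52. Over all probes, higher calls numbered 264 rather than 412 without either V+S+ sample.

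To show what was measured, the first 30 bases of the 60-base probes of the 8 genes with the largest differences follow, as the scanner files give them, 5′ to 3′ and with no part in capitals. The probes came from chromosomes 3, 13, 15, 6, 7, X, 15 and 1 by the symbols of the reference table, in the order listed.
Pcdh18: gaatgccttggtaagtgagatctttactat
Foxc1: gttacggaccaaacaccagaaagtgttcca
Ghr: tgttctgcagtctatatttaactttcttta
Antxr1: tgagttattgttataaaagacttgtcatca
Lgals7: atcagtgacaacacccttgtggtctaaact
Arhgap6: gccatgatgagtaaaatgttaagtaaagat
Adamts12: taaaaccagattataatcataggctgtctt
St8sia4: tccagatagctttgctgcataggataattg
The 60-base probes held between 31.7% and 43.3% G and C.

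The called genes named by rule included genes for secreted signals and for a hormone receptor. Tgfb2, a ligand of the TGF-beta receptors, stood at -1.26, -0.85, -1.53 and 0.27 in clone 5.1, and at -0.57, 0.14, -1.02 and 0.94 in clone 16.1. Each fraction was higher in clone 16.1, by 0.51 to 0.98, although the ranges of the clones overlapped. The mean difference was 0.72 ± 0.07 (SE; adjusted p = 0.00263). Fgf5, a growth factor gene known from epiblast that has left the naive state, stood at -0.69, 0.42, -0.44 and 0.61 in clone 5.1 and at -0.34, 1.36, 0.18 and 1.27 in clone 16.1. Its difference was 0.64 ± 0.09 (adjusted p = 0.00477), and its highest sample was V+S+ of clone 16.1. Nts, which encodes the peptide neurotensin, was higher by 0.71 ± 0.08 (adjusted p = 0.00293). Ghr, the growth hormone receptor, stood at -3.62, -2.37, -3.84 and -2.11 in clone 5.1 and at -3.17, -1.35, -3 and -1.26 in clone 16.1. Both V+ samples of clone 16.1 lay above every sample of clone 5.1, and the difference was 0.79 ± 0.09, or 1.73-fold (adjusted p = 0.00293). Il18, which encodes a cytokine, was just past the fold threshold at 0.59 ± 0.1 (adjusted p = 0.00796) and lost its call in 9 of 21 alternatives (0.48 to 0.83). Without either V+S+ sample, Fgf5 was at 0.54 and Il18 at 0.5, short of 1.5-fold.

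Of transcription factor genes, Foxc1 led. Foxc1, a forkhead factor of mesoderm and mesenchyme, stood at -3.95, -3.36, -4.12 and -2.39 in clone 5.1 and at -3.34, -2.44, -3.54 and -1.34 in clone 16.1, in the same order of fractions. V+S- was the highest fraction in both clones, and every fraction was higher in clone 16.1, by 0.58 to 1.05. The mean difference was 0.79 ± 0.09 (adjusted p = 0.00277). Maf, a basic leucine zipper factor, differed by 0.72 ± 0.1 (adjusted p = 0.00518), with 1 in V+S+ and 0.46 in V-S+. Zfp703, a zinc finger cofactor, differed by 0.7 ± 0.09 (adjusted p = 0.00357). Fosl2, a member of the AP-1 family, differed by 0.68 ± 0.11 (adjusted p = 0.00679), with 1.11 in V+S+ as its largest value and 0.43 in V-S- as its smallest, and was at 0.54, short of 1.5-fold, without either V+S+ sample.

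Pcdh18, a protocadherin and the named gene with the largest difference, stood at -2.38, -1.96, -2.59 and -0.34 in clone 5.1 and at -1.65, -0.65, -1.89 and 0.53 in clone 16.1. The 4 differences were 0.74, 1.31, 0.7 and 0.87, with a mean of 0.91 ± 0.1 (1.87-fold; adjusted p = 0.00289). Antxr1, which encodes a collagen-binding receptor also used by anthrax toxin, stood at -4.21, -3.28, -4.14 and -2.35 in clone 5.1 and at -3.67, -2.26, -3.43 and -1.52 in clone 16.1, a difference of 0.77 ± 0.08 (adjusted p = 0.00234). Its level in V+S+ of clone 16.1 was close to that of V+S- of clone 5.1. Lgals7, a galectin of stratified epithelia, differed by 0.77 ± 0.07 (adjusted p = 0.00221), with values from -2.08 to 0.01 in clone 5.1 and from -1.26 to 0.64 in clone 16.1. The glycan enzymes St8sia4, which makes polysialic acid, and Hs6st2, which sulphates heparan sulphate, both differed by 0.72 ± 0.07 (adjusted p = 0.00223 for each). Arhgap6 differed by 0.74 ± 0.09, the volume-regulated channel subunit Lrrc8c by 0.7 ± 0.08 and the axonal motor Kif1a by 0.7 ± 0.08, with adjusted p between 0.00306 and 0.0034. For Kif1a the differences in the V+ and V- samples of each SSEA-1 class were 0.91 and 0.51 in S+, and 0.51 and 0.85 in S-. Among called genes outside the rule for naming, Egfr (0.62 ± 0.09), the Wnt receptor gene Fzd1 (0.6 ± 0.06) and Cav1, the main caveolin (0.67 ± 0.09), were also higher. They were picked after their values were seen. Each was widest in V+S+, at 0.95, 0.73 and 1 in that order, with smallest differences of 0.38, 0.44 and 0.43, short of 1.5-fold.

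**Figure D2:**
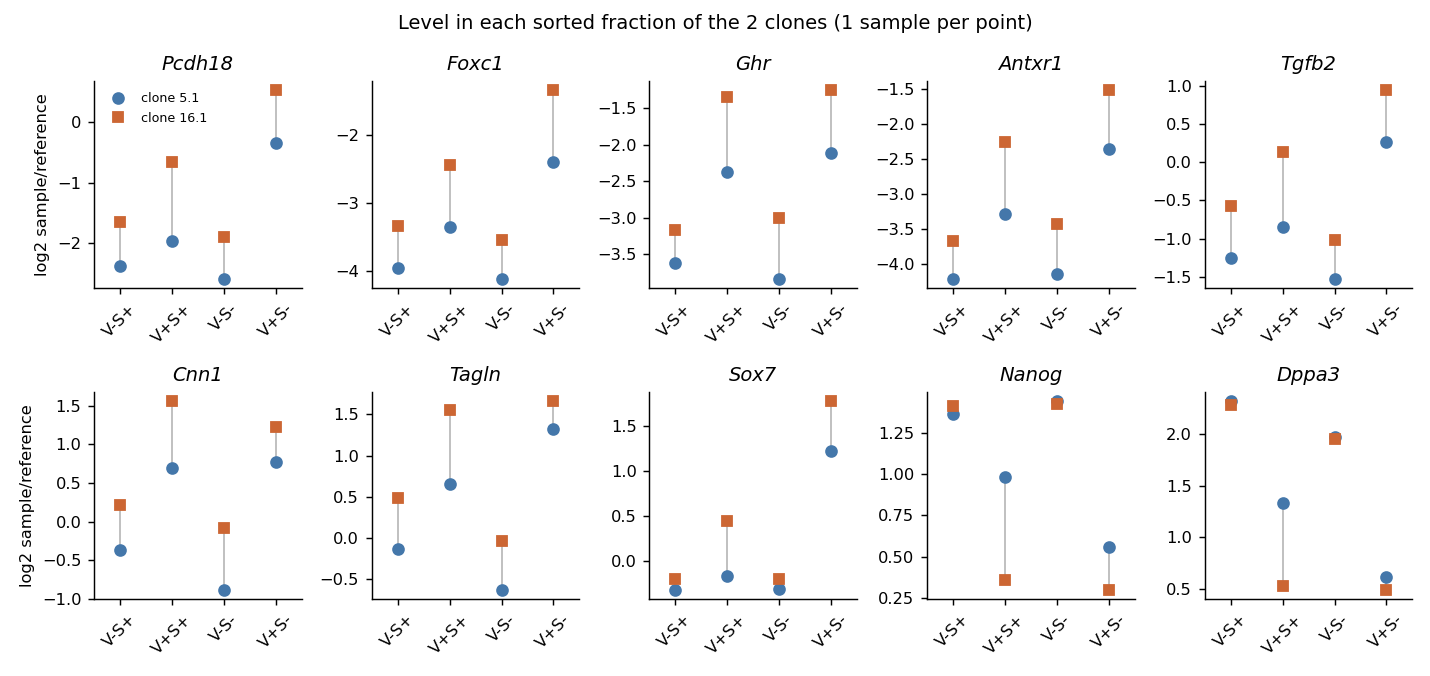
Log2 ratio of sample to reference (y axis, its own scale in each panel) for 10 genes in the 4 sorted fractions (x axis), circles for clone 5.1 and squares for clone 16.1, 1 sample per point, with a grey line joining the clones of a fraction. For the first 7 genes, from Pcdh18 to Tagln, clone 16.1 lay above clone 5.1 in every fraction, whereas Nanog and Dppa3 differed mainly in V+S+, by -0.62 and -0.8.

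List members could only come from the named probes, of which 37.7% passed the FDR as higher in clone 16.1 and 4.26% as lower, with a median difference of 0.13, and each count below stands against those shares. Those shares mix genes higher and lower in V+. Outside chromosome 11, named probes higher in V+ than in V- had a median clone difference of 0.25, and those lower in V+ one of -0.1. The matrix, contractility, YAP-responsive and imprinted lists had median differences between V+ and V- of 0.93, 0.92, 1.11 and 0.92. Their medians are therefore better set against 0.25 than against 0.13. Most members of the matrix and contractility lists were higher. Of 36 extracellular matrix genes measured, 24 passed the FDR as higher in clone 16.1, none as lower, and 12 did not pass; 3 were called, and the median difference of the list was 0.31, against 0.13 over named probes and 0.01 over all probes. Markers of fibroblasts and mesenchyme, described below, were all higher too (11 of 11, median 0.44), and 5 of the matrix genes are among them. Without those 5, 19 of 31 matrix genes were higher, with a median of 0.26. The part of such cells in the matrix and contractility lists was not tested; no contractility gene is on the marker list. Pxdn, a peroxidase that cross-links collagen IV, differed by 0.62 ± 0.07 (adjusted p = 0.00329). Mfap2, a microfibril component, differed by 0.59 ± 0.08, and Col4a5, a basement membrane collagen chain, by 0.59 ± 0.08 (adjusted p = 0.0046 and 0.00448). Without either V+S+ sample none of these was past 1.5-fold, with Pxdn at 0.53 and Mfap2 and Col4a5 at 0.5; Mfap2 lost its call in 6 of 21 alternatives and Col4a5 in 9. The collagen IV chains Col4a1 and Col4a2, which are made in quantity by PrEn derivatives, had values of 0.08 and 0.16. Adamts12, a matrix metalloprotease, stood at -2.09, -1.75, -2.06 and -0.41 in clone 5.1 and at -1.59, -0.73, -1.64 and 0.54 in clone 16.1, a difference of 0.72 ± 0.11 (adjusted p = 0.00627).

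Of 37 genes of the actin cytoskeleton and contractility, 28 passed the FDR as higher and 1, Tln2 at -0.28, as lower (median 0.32). The 3 called were smooth muscle genes that bind or form actin filaments. Cnn1, calponin, stood at -0.37, 0.7, -0.88 and 0.77 in clone 5.1 and at 0.21, 1.56, -0.08 and 1.22 in clone 16.1, a difference of 0.67 ± 0.07 (adjusted p = 0.00277). Tagln, transgelin, stood at -0.13, 0.65, -0.63 and 1.32 in clone 5.1 and at 0.49, 1.55, -0.04 and 1.66 in clone 16.1, a difference of 0.61 ± 0.09 (adjusted p = 0.005). Acta2, smooth muscle actin, differed by 0.62 ± 0.11 (adjusted p = 0.00868). Without either V+S+ sample Acta2 was at 0.5 and Tagln at 0.51, short of 1.5-fold; Acta2 lost its call in 8 of 21 alternatives, Tagln in 5 and Cnn1 in 2. In Cnn1, Tagln and Acta2, V+S- had the smallest of the 4 differences, at 0.45, 0.34 and 0.37.

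Smooth muscle and cytoskeletal genes are classic targets of serum response factor, which binds the CArG box, and the promoters of the list were searched for that motif. In the 250 bases before the start site (RefSeq, GRCm38.p6), the box was found in 8 of 30 genes of the contractility list that had a promoter in the table (26.7%), in 1.62% of all 27025 genes with a promoter, and in none of the 37 called genes that had one. Both strands were covered, since the reverse complement of a box is again a box. The list is made of such genes, so its share with a box follows from how it was chosen and says nothing of the clones. Boxes outside these 250 bases were not searched. Binding letters known for TEAD and AP-1 factors were also searched, on both strands: GGAATG was in 36.7% of the list's promoters, 10.8% of those of called genes and 14.4% of all, and TGAGTCA in 6.67%, 5.41% and 5.16%. Of the 8 genes with a box, 5 passed the FDR as higher, namely Acta1 (0.47), Myl6 (0.35), Myl9 (0.32), Vcl (0.31) and Fhl2 (0.17), while Cnn2, Lima1 and Myl7 had values of 0.07, -0.02 and -0.2. The promoters of the first pair are shown with the box in capitals, 5′ to 3′ on the minus strand of the genome, for Acta1 at chr8:123894776-123895025 and for Myl6 at chr10:128493010-128493259.
Acta1: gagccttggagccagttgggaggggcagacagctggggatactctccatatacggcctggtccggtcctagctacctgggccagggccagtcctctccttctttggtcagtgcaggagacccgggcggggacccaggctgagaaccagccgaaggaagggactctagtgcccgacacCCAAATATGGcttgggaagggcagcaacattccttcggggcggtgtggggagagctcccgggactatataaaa
Myl6: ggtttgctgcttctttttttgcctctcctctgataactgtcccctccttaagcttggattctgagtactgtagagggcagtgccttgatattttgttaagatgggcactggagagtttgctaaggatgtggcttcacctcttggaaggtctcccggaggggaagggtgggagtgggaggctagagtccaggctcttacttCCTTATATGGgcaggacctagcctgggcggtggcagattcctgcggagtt
A match is a description of these letters only. Acta1 and Myl6 had adjusted p of 0.0142 and 0.0134 and were not called.

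Of 16 YAP-responsive genes measured, 13 passed the FDR as higher and none as lower, with a median of 0.36 and Tgfb2 the 1 called. Those that did not pass were the widely used targets Cyr61 (0.24) and Ankrd1 (0.24), and F3 (0.13), while Ctgf passed at 0.28. Of 20 NF-kappaB and chemokine genes, 11 were higher and none lower (median 0.27). Of 19 immediate early and stress-induced genes, 10 were higher and 1, Ddit4 at -0.4, was lower (median 0.24). Among early response factors, Atf3 (0.55), Klf6 (0.47), Jun (0.4) and Junb (0.26) passed the FDR, and Fos (0.05) and Zfp36 (0) did not. Such genes are also known to respond to sorting and handling, whose part was not tested. Among 13 targets of FGF and ERK signalling, 6 were higher and none lower (median 0.25), and of 8 BMP and Id genes 4 were higher and none lower (median 0.19); both counts lie near the 37.7% of all named probes. Id1 and Id2, inhibitors of basic helix-loop-helix factors, differed by 0.23 ± 0.07 and 0.35 ± 0.08 (adjusted p = 0.0492 and 0.0177) and were not called. Id1 did not pass the FDR with any 1 sample left out (0.14 to 0.27, adjusted p = 0.0523 to 0.12). Id2 did not pass without either V+S+ sample (0.28, adjusted p = 0.0526) or either V+S- sample (0.33, adjusted p = 0.0804). With the scanner's processed signals neither passed (adjusted p = 0.111 and 0.0605).

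**Figure D3:**
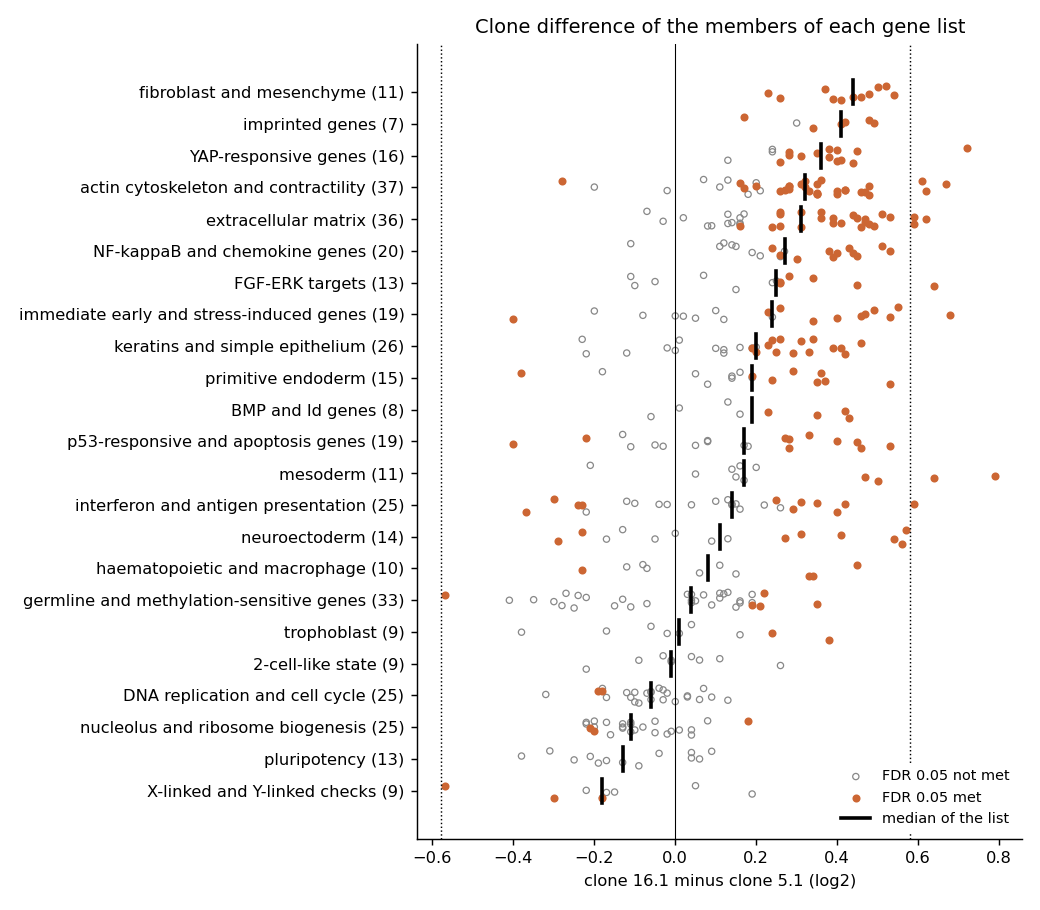
Clone difference in log2 units (x axis) of each measured member of 23 gene lists (rows, with the number measured in brackets), filled where the FDR of 0.05 was met and open where it was not; black bars are medians and dotted lines mark 1.5-fold. Fibroblast and mesenchyme, imprinted, YAP-responsive, contractility and matrix genes had the highest medians, from 0.44 down to 0.31, and pluripotency genes lay mostly below 0.

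The reporter was built to separate cells with PrEn transcripts from the rest. Of 15 measured genes of the PrEn list, 7 passed the FDR as higher, 1 as lower and 7 did not pass, and none was called (median 0.19). Sox7, a transcription factor of PrEn, stood at -0.32, -0.17, -0.31 and 1.23 in clone 5.1 and at -0.2, 0.44, -0.2 and 1.78 in clone 16.1. The V- samples of both clones lay within 0.12 of each other, and the V+ samples of clone 16.1 were higher by 0.6 and 0.54, for a mean of 0.35 ± 0.1 (adjusted p = 0.0402), which did not pass without either V+S+ sample (0.26, adjusted p = 0.129) or either V+S- sample (0.28, adjusted p = 0.153). Nor did Sox7 pass with the scanner's processed signals (0.5, adjusted p = 0.104), the authors' values (0.5, adjusted p = 0.0946), no background correction (adjusted p = 0.0543) or the Cy3 channel alone (adjusted p = 0.0586). Gata6, the factor that drives PrEn fate, stood at -2.62, -2.45, -2.43 and -1.5 in clone 5.1 and at -2.67, -2.5, -2.56 and -1.98 in clone 16.1. Its difference of -0.18 ± 0.08 did not pass (adjusted p = 0.139), and V+S- of clone 5.1 was the highest of the 8 samples. With the scanner's processed signals it was -0.6 and called (adjusted p = 0.0242), as it was in the authors' values (-0.6, adjusted p = 0.0205), and without either V+S- sample it was -0.08. Dab2, an endocytic adaptor of PrEn, had a difference of 0.14 ± 0.08 (adjusted p = 0.223). The lower member of the list was Cfc1, a Nodal co-receptor, at -0.38. Cfc1 was itself lower in V+ than in V- (-0.93), as was Gsc of the same list (-0.49). Sox7 (1.08) and Dab2 (0.72) were higher in V+. Hex and the PrEn genes Gata4 and Pdgfra had no named probe and were not analysed here.

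With all 8 samples, none of 13 pluripotency genes measured passed the FDR in either direction (median -0.13). By fraction the list's median was 0.14, -0.45, 0.09 and -0.22, and with 1 sample left out the median over fractions lay between -0.26 (without either V-S+ sample) and -0.02 (without either V+S+ sample). Nanog stood at 1.36, 0.98, 1.44 and 0.56 in clone 5.1 and at 1.41, 0.36, 1.42 and 0.3 in clone 16.1, so that the V- samples of the clones lay within 0.05 of each other and V+S+ of clone 16.1 lay 0.62 below its counterpart. Over the 4 fractions the difference was -0.21 ± 0.11 (adjusted p = 0.194). Dppa3 (Stella), a gene of naive and germ cells, followed the same course, with 2.32, 1.33, 1.97 and 0.61 in clone 5.1 and 2.28, 0.53, 1.95 and 0.49 in clone 16.1, and a difference of -0.25 ± 0.13 (adjusted p = 0.2). Pou5f1 (Oct4) had the reverse sign in 1 fraction: its differences were -0.45, -0.54, 0.19 and -0.43, with a mean of -0.31 ± 0.12 (adjusted p = 0.0982). Without either V-S- sample it was -0.47 and passed the FDR (adjusted p = 0.00857), still short of the fold threshold. The intervals of these means, from -0.47 to 0.05 for Nanog, from -0.56 to 0.06 for Dppa3 and from -0.59 to -0.03 for Pou5f1, leave room for differences close to the fold threshold. Since the samples were bulk RNA, fewer cells of a type and less RNA per cell cannot be told apart.

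Markers of cell types other than ES cells and endoderm moved unevenly. All 11 fibroblast and mesenchyme markers measured passed the FDR as higher in clone 16.1, though none was called (median 0.44, range 0.23 to 0.54). They included the intermediate filament gene Vim (0.54), Col1a2 (0.46) and Postn (0.48). Their summed level, as linear ratios, lay between 1.27 and 3.1 in clone 5.1 and between 1.5 and 4.87 in clone 16.1. Such a sum is carried by the markers with the highest ratio to the reference, and those with a low ratio add little. It was higher in clone 16.1 in every fraction, 1.55 against 1.27 in V-S+, 2.49 against 1.66 in V+S+, 1.5 against 1.33 in V-S- and 4.87 against 3.1 in V+S-. The part of such cells in the difference between clones was not tested. Of 10 haematopoietic and macrophage markers, 3 were higher and 1 lower (median 0.08; summed level 5.85 to 9.25 in clone 5.1 and 6.82 to 10.2 in clone 16.1). Of 9 trophoblast markers 2 were higher and none lower (median 0.01). Of 14 neuroectoderm markers 6 were higher and 2 lower (median 0.11), and of 11 mesoderm markers 4 were higher and none lower (median 0.17). Imprinted genes had 6 of 7 measured members higher and none lower, among them Igf2 at 0.48 and Sgce at 0.49 (median 0.41). Keratin and simple epithelium genes had 14 of 26 higher and none lower (median 0.2), and p53-responsive genes 8 of 19 higher and 2 lower (median 0.17).

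DNA replication and nucleolar genes had slightly lower medians in clone 16.1, near that of named probes lower in V+. Those probes had a median of -0.1 outside chromosome 11. The replication and nucleolar lists were themselves lower in V+ than in V-, with medians of -0.41 and -0.38. Of 25 replication and cell cycle genes none passed as higher and 2 passed as lower (median -0.06), and of 25 nucleolar and ribosome biogenesis genes 1 was higher and 2 were lower (median -0.11). Of 25 interferon and antigen presentation genes 7 were higher and 4 lower (median 0.14), and of 33 germline genes 4 were higher and 1 was lower (median 0.04). The lower germline gene was Rhox5, an X-linked homeobox gene sensitive to DNA methylation, which had the lowest difference of all named probes, -0.57, just inside the fold threshold; it was singled out after its value was seen. The list meant to check X-linked and Y-linked genes, which includes Rhox5, had none of 9 measured members higher and 3 lower (median -0.18). None of the 1882 named probes placed on a chromosome lay on the Y, so Y-linked genes were not checked. The list was lower in V+ than in V-, with a median of -0.58.

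The clone difference followed the Venus difference. In the same fit, 1810 probes (6.13%) were called higher in V+ than in V- fractions and 741 (2.51%) lower. Of the 412 probes higher in clone 16.1, 323 (78.4%) were also called higher in V+ and 3 lower, and of the 220 probes lower in clone 16.1, 124 (56.4%) were also called lower in V+ and 1 higher. The 52 called named probes were all higher in V+, which the choice of the named list favours. The clone and Venus contrasts come from a balanced design, so neither enters the other's estimate, but they share 1 estimate of the residual spread per probe. When V+S+ of clone 16.1 was left out, the share of the lower probes was 25%, and it was 28% without V+S- of clone 16.1; the share of the higher probes lay between 72.3% and 81.8% whichever sample was left out.

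Within single fractions, with 1 sample of each clone and no test, the clones were further apart in V+ than in V-. In V+S+, 1103 probes (3.74%) were more than 1.5-fold higher in clone 16.1 and 820 (2.78%) lower. In V+S- there were 640 (2.17%) higher and 706 (2.39%) lower. In V-S+ there were 254 (0.861%) higher and 125 (0.424%) lower, and in V-S- 321 (1.09%) higher and 119 (0.403%) lower. Over probes, the difference had an SD of 0.19 in both V- fractions and of 0.3 and 0.27 in the V+ fractions.

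**Figure D4:**
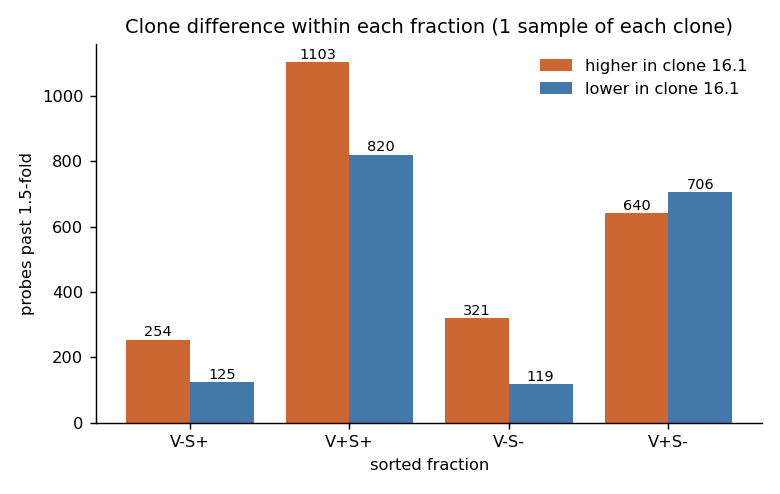
Number of probes more than 1.5-fold higher or lower in clone 16.1 (y axis) within each sorted fraction (x axis), each from 1 sample of either clone. V+S+ had the most of both, 1103 higher and 820 lower, and V- fractions had at most 321 higher and 125 lower.

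Whether the clone difference was another in V+ than in V- fractions was tested as an interaction, with 2 residual degrees of freedom. At an FDR of 0.05 and a difference of clone differences of more than 1.5-fold, 34 probes (0.115%) had a more positive and 461 (1.56%) a more negative clone difference in V+. Of the 461, 332 were also called lower in V+ than in V-. Called interactions among named probes numbered 2 positive and 71 negative. No interaction was called when the scanner's processed signals, the authors' own values or unmoderated variances were used, and 101 and 144 were called without a V-S+ and a V-S- sample. For SSEA-1, no interaction was called by limma (smallest adjusted p = 1; 252 unadjusted p-values were below 0.05).

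Of the 5 largest negative interactions among named probes, 3 were of genes on the list for the 2-cell-like state, a rare state of ES cells that transcribes genes of the early cleavage embryo. Tcstv3, named for the 2-cell stage, stood at -0.27, -0.31, 1.9 and 1.51 in clone 5.1 and at 0.55, -0.78, 2.37 and 0.64 in clone 16.1. Its V- samples were higher in clone 16.1, by 0.82 and 0.47, and its V+ samples lower, by 0.47 and 0.88. The difference between these was -1.32 ± 0.16 (SE; adjusted p = 0.013), while the mean clone difference was -0.01. Tcstv1 had an interaction of -1.25 ± 0.18 (adjusted p = 0.0185), AF067061 one of -1.36 ± 0.16 (adjusted p = 0.0114) and Eif1a, whose symbol is that of a translation initiation factor, one of -1.45 ± 0.15 (adjusted p = 0.0087). Each changed sign between V- and V+. Several of these genes belong to families of near-identical copies, and the probes may not tell the copies apart. Zfp371, a zinc finger gene, behaved likewise, with 0.6, -0.83, 0.39 and -0.65 and an interaction of -1.24 ± 0.1 (adjusted p = 0.00704). Of the 9 measured genes of the 2-cell-like list, 6 passed the FDR with a negative interaction and none with a positive one, against 7.56% of named probes passing with a negative and 2% with a positive interaction, and 3.78% of all probes passing in either direction. By fraction the list's median difference was 0.64, -0.29, 0.4 and -0.68. Of 33 germline genes, 13 passed with a negative interaction.

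Positive interactions called among named probes were Igfbp5, which encodes an insulin-like growth factor binding protein, and A2bp1, an RNA splicing factor gene of neurons. Igfbp5 stood at -2.18, -1.9, -1.94 and -0.03 in clone 5.1 and at -1.67, -0.83, -1.75 and 0.88 in clone 16.1. It was higher by 0.51 and 0.19 in the V- samples and by 1.07 and 0.91 in the V+ samples, an interaction of 0.64 ± 0.12 (adjusted p = 0.0411). Its clone difference of 0.67 ± 0.14 (adjusted p = 0.016) was called, and lost its call in 8 of 21 alternatives, among them those without either sample of a V+ fraction. A2bp1 had an interaction of 0.65 ± 0.11 (adjusted p = 0.0278) and no clone difference past the FDR (0.26 ± 0.14, adjusted p = 0.204). For 51 of the 52 called named probes the interaction was positive in sign, and 7 of them passed the FDR, among them Foxc1 (0.39, adjusted p = 0.0487), Maf (0.49, adjusted p = 0.0217) and Adamts12 (0.53, adjusted p = 0.0185).

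**Figure D5:**
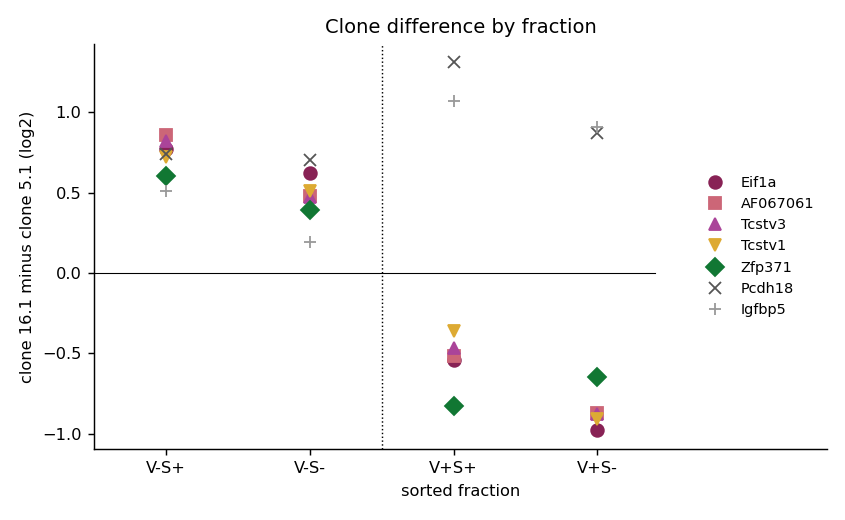
Clone difference in log2 units (y axis) in each sorted fraction (x axis, V- fractions left of the dotted line), 1 sample of each clone per point. Eif1a, AF067061, Tcstv3, Tcstv1 and Zfp371 were above 0 in both V- fractions and below 0 in both V+ fractions, whereas Pcdh18 and Igfbp5 were above 0 in all 4.

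Placed on chromosomes through current symbols and synonyms (1882 named probes, 20 chromosomes), the clone difference was much alike from one chromosome to the next, with chromosome 11 apart. The median was 0.02 over 161 named probes of chromosome 11 and between 0.06 and 0.2 on the others. On chromosome 11 the V- fractions had medians of 0.14 (S+) and 0.1 (S-), and the V+ fractions -0.09 and -0.04. The named probes of chromosome 11 also included fewer that were higher in V+, 36% against 67.6% on the other chromosomes. Split by that direction, its probes had medians of 0.29 (higher in V+) and -0.04 (lower in V+), against 0.25 and -0.1 elsewhere. The X chromosome had a median of 0.13 over 73 named probes. These are medians over genes chosen for differing among fractions, with no test.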

How the data were processed

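The authors deposited, for each of 8 two-colour arrays, the spot intensities of 2 repeat scans (16 files; Agilent Feature Extraction 9.5.1.1, array design 015087, per the file headers), before normalization between arrays. They also deposited a log10 table of 25164 probes, which was used as an alternative: less its mean over samples it correlated at 1 with ratios of processed signals, and its centring is unknown. Here mean signals were background corrected (normexp, offset 50) against median local backgrounds and normalized by loess in limma 3.58.1 (R 4.3.3). Control and outlier spots were left out, and the scans were averaged to log2 Cy3 over Cy5, with no dye swap to cancel dye bias. A probe had to be well above background in Cy3 in all files of 1 clone or 1 fraction (29523 passed, 29512 tested). Models held fraction and clone, or their interaction with Venus or SSEA-1; limma p-values were Benjamini-Hochberg adjusted over all probes, with an FDR of 0.05 and 1.5-fold as calls. The fit was checked on simulated data. Repeat samples come from sorted fractions of 1 culture, so p-values measure only the spread between these samples.

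Named were the 15 largest called differences with a symbol in each direction, the 2 largest without, called members of 23 gene lists, the 5 largest called interactions each way, and 8 lineage genes. Symbols came from the study's own gene list, of which 1998 rows were used here (1 unusable), and which was selected on these samples. The members, lists and rules were chosen with earlier results of these data known. Alternatives covered the background correction, normalization, filters, scans, the authors' table, fraction terms, moderation, the fold threshold and each sample left out; the reference channel alone and the shares along Venus were added after seeing the data.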

Additional observations from a re-analysis of the deposited data

Results flagged for a closer look

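The clone difference depended on Venus at 495 probes by the interaction test, with the named leaders Eif1a (-1.45), AF067061 (-1.36), Tcstv3 (-1.32), Tcstv1 (-1.25) and Zfp371 (-1.24) on the negative side and A2bp1 (0.65) and Igfbp5 (0.64) on the positive side. Among the 4 within-fraction differences of each named gene, 1 value stood far from the other 3 for Dppa3, at -0.8 in V+S+, and for Pou5f1, at 0.19 in V-S-; chance alone would put about 1 in 20 such groups there. The SD between the repeat scans was highest for V-S+ in both clones, at 0.08721 in clone 16.1 and 0.08833 in clone 5.1, against at most 0.07528 for the other samples. Both V-S+ samples took the same array position on their slides.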

How the results depend on the processing

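Numbers of probes called higher and lower in clone 16.1 (412 and 220) were 903 and 449 with signals processed by the scanner software, 695 and 306 with the authors' values, 7 and 10 with no replicate block (the fraction term left out, so that samples of one fraction were no longer paired), 2 and 0 without moderation, 4844 and 2901 with no fold threshold, and 0 and 0 in the reference channel alone. Leaving out 1 sample gave between 264 and 517 higher and between 125 and 341 lower; the partner sample of that fraction then adds nothing to the clone term, so both samples of a fraction gave the same counts. Venus interactions (495) numbered 0 with processed signals, the authors' values, no moderation and the reference channel, 1117 with no fold threshold, and between 101 and 669 with 1 sample left out; SSEA-1 interactions (0) numbered 3 with both interactions in 1 model. With 1 sample left out, the share of higher probes also higher in V+ lay between 72.3% and 81.8%, and that of lower probes also lower in V+ between 25% and 67.2%.

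The clone terms of the genes led by the Venus interaction were near 0 and changed sign in some settings: with median centring Eif1a was at 0.03 and AF067061, Tcstv3 and Tcstv1 at 0.05. Without either V+S+ sample they were at 0.14 (Eif1a), 0.15 (AF067061), 0.14 (Tcstv3), 0.11 (Tcstv1) and 0.11 (Zfp371), and without either V+S- sample at 0.28, 0.27, 0.27, 0.29 and 0.05 in that order; with 1 sample left out their lowest values were -0.3, -0.3, -0.29, -0.25 and -0.36. Over the 43 named probes, 766 of 899 comparisons with an alternative kept direction and call; of the 29 that were called, 28 lost their call with no replicate block, all 29 without moderation and 14 with Venus and SSEA-1 as additive terms; the cause of the changes was not tested. Of the gene list medians, that of interferon and antigen presentation genes (0.14) moved by more than its spread over fractions in 7 alternatives, to between 0.09 and 0.19.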
